A study of Mus musculus with 6 samples.

Results

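The genes described here are 33 components of the Wnt and Notch signalling pathways, the ligands, receptors, transducers and targets named in a fixed list. Of these, 32 were read by at least 1 probe of the array under their gene symbol. Tcf7, which encodes the transcription factor TCF-1, had no probe under its symbol and enters no comparison. The 32 are part of 21946 genes with a probe. Each gene is represented by its brightest probe, taken by mean log2 intensity over all arrays.

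The cells were mouse haematopoietic stem cells, measured on 6 one-colour Illumina bead arrays. In 3 arrays the cells came from Matn4-/- donors, which carry the CD45.2 allele and whose Matn4, the gene of the matrix protein matrilin-4, is disrupted. The other 3 arrays held cells of wt donors, which carry both CD45.1 and CD45.2. Marrow of both donors had been mixed in equal parts and given to CD45.1 recipients irradiated with 2 doses of 500 rad. The stem cells were sorted 4 weeks later as lineage-negative, Sca-1 and Kit positive (LSK) cells that carry CD150 and lack CD48. All mice are labelled as female C57/BL6 of 12 weeks. The labels call the 3 arrays of a genotype biological replicates and do not say whether each array is a separate recipient, so p-values may measure technical spread alone. Both genotypes had been through irradiated hosts, so no array shows cells that were never transplanted.

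Wnt proteins bind Frizzled receptors together with the co-receptors Lrp5 and Lrp6. Binding stops a complex of Axin, Apc and the kinase Gsk3b from marking beta-catenin for degradation, and beta-catenin then joins TCF/LEF factors at target genes. Notch receptors are cut when a Delta-like or Jagged ligand on a neighbouring cell binds them, and the released part joins Rbpj and Mastermind at targets such as the Hes and Hey repressors. In blood formation Notch1 is best known for driving T cell commitment, and the Wnt factors TCF-1 and LEF-1 act in early T and B cells. In stem cells the strength of Wnt signalling is known to matter for self-renewal.

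Most of these genes gave dim signals. The deposited intensities still contain the array background, so its level was read from 12 Y-linked probes, whose genes are missing from female cells. The brightest of them on each array, called the Y-linked limit here, was a probe for Uty on every array and read 123.8 to 142.2. Above it on all 6 arrays stood 6 of the 32 genes, namely Ctnnb1, Axin1, Tcf7l2, Gsk3b, Fzd6 and Nrarp. A further 13 stood above it on 1 to 5 arrays and 13 on none. Among all genes with a probe, 26.1% stood above it on all 6 arrays and 43.3% on none, against 18.8% and 40.6% of the pathway genes. Among the 12764 genes kept for the test, 44.9% stood above it on all 6 arrays, against the same 6 of 19 pathway genes. Measured against the second brightest Y-linked probe of each array, a limit chosen after the data were seen, 13 pathway genes stood above it on all 6 arrays.

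The labels and the cell type were checked on the same arrays. The brightest of 3 Matn4 probes read 168, 318 and 331 in Matn4-/- cells, against 310.3, 158 and 378 in wt cells, which do not separate the genotypes, with a log2 fold change of -0.024 ± 0.34 (SE; adjusted p = 0.999). Whether this probe covers the deleted sequence is not stated in the labels, so it cannot check them. The other Matn4 probes are not reported here, and every direction given is that of the arrays labelled Matn4-/-. Of 15 stem cell markers with a probe, 13 exceeded the Y-linked limit on all 6 arrays, among them Kit, Slamf1 (CD150), Procr and Mecom. The others were Fgd5, which exceeded it on 4 arrays, and Hlf, which exceeded it on Matn4-/- replicate 3 alone. T cells express many Notch and TCF targets. Of 10 T cell markers with a probe, 8 exceeded it on no array, including Cd3e, Cd3d and Cd3g, and the summed intensity of the 10 was 1291 to 1320.4 in Matn4-/- and 1334 to 1363 in wt cells. That gap lay in Cd8b1, the 1 T cell marker above the limit on all 6 arrays, which read 281, 291 and 278 in Matn4-/- cells, against 320.0, 319 and 342 in wt cells. Without it the sums were 1012 to 1039 in Matn4-/- cells and 1012 to 1045 in wt cells and overlapped. No T cell marker passed an adjusted p of 0.05 in limma (smallest adjusted p = 0.806), and in 10.5% of all tested genes the genotypes did not overlap. Of 12 stromal and endothelial markers, which belong to the usual carriers of Notch ligands, 1 (Pecam1) exceeded the Y-linked limit on all 6 arrays and 5 on none, with sums of 1433 to 1615 in Matn4-/- and 1458 to 1489 in wt cells. Markers of other blood lineages were also above the limit on all 6 arrays, 4 of 12 of granulocytes and monocytes (among them Mpo and Lyz2), 3 of 7 of the erythroid lineage (Hbb-b1, Hba-a1 and Car1), 3 of 6 of megakaryocytes, 2 of 7 of B cells and 2 of 8 of mast cells and basophils (Mcpt8 and Hdc). Summed over each list, the mast cell and basophil markers read 1197 to 1793 in Matn4-/- cells and 1113 to 1524 in wt cells, and the erythroid markers 1849 to 2667 in Matn4-/- cells and 1518 to 2628 in wt cells. The granulocyte and monocyte markers summed to 2233 to 3050.1 in Matn4-/- cells and 2127 to 2920 in wt cells, the megakaryocyte markers to 1071 to 1151 in Matn4-/- cells and 1144 to 1228 in wt cells, and the B cell markers to 871 to 922 in Matn4-/- cells and 889 to 943 in wt cells. All of these sums overlapped between genotypes, but single markers of some lists leaned 1 way. Of markers with a fold, 5 were higher in Matn4-/- cells and 0 lower for mast cells and basophils, and 5 and 1 for the erythroid lineage. For megakaryocytes 1 was higher and 4 lower, for stroma and endothelium 0 and 3, for granulocytes and monocytes 4 and 5, and for B cells 2 and 1. No marker passed an adjusted p of 0.05 in limma. The part of these cells in the pathway values was not tested.

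No pathway gene differed between genotypes at the threshold, an adjusted p of 0.05 in limma over all genes tested. The brighter 50% of probes were tested, which kept 19 of the 32 genes in a fit of 12764 genes. None of the 19 passed (0.0548% of all tested genes did), and none was at an unadjusted p under 0.05 (5.59% of all tested genes were). Adjusted p-values lay between 0.928 and 0.999. The median log2 fold change of the 19 was 0.023, against -0.0076 for all tested genes. For 16 of the 19 a fold is given, since they stood above the Y-linked limit on at least 1 array of each genotype. Of these, 11 were higher and 5 lower in Matn4-/- cells, with a median of 0.031, and 46.7% of all tested genes were higher. In none of the 19 did the 3 Matn4-/- arrays lie apart from the 3 wt arrays (10.5% of all tested genes). A p that misses the threshold does not show that the genotypes are alike, and the 95% intervals of the 19 reached from -0.40 to 0.45 on the log2 scale. These intervals are of intensities with background in them and understate the range for dim genes.

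**Figure D1:**
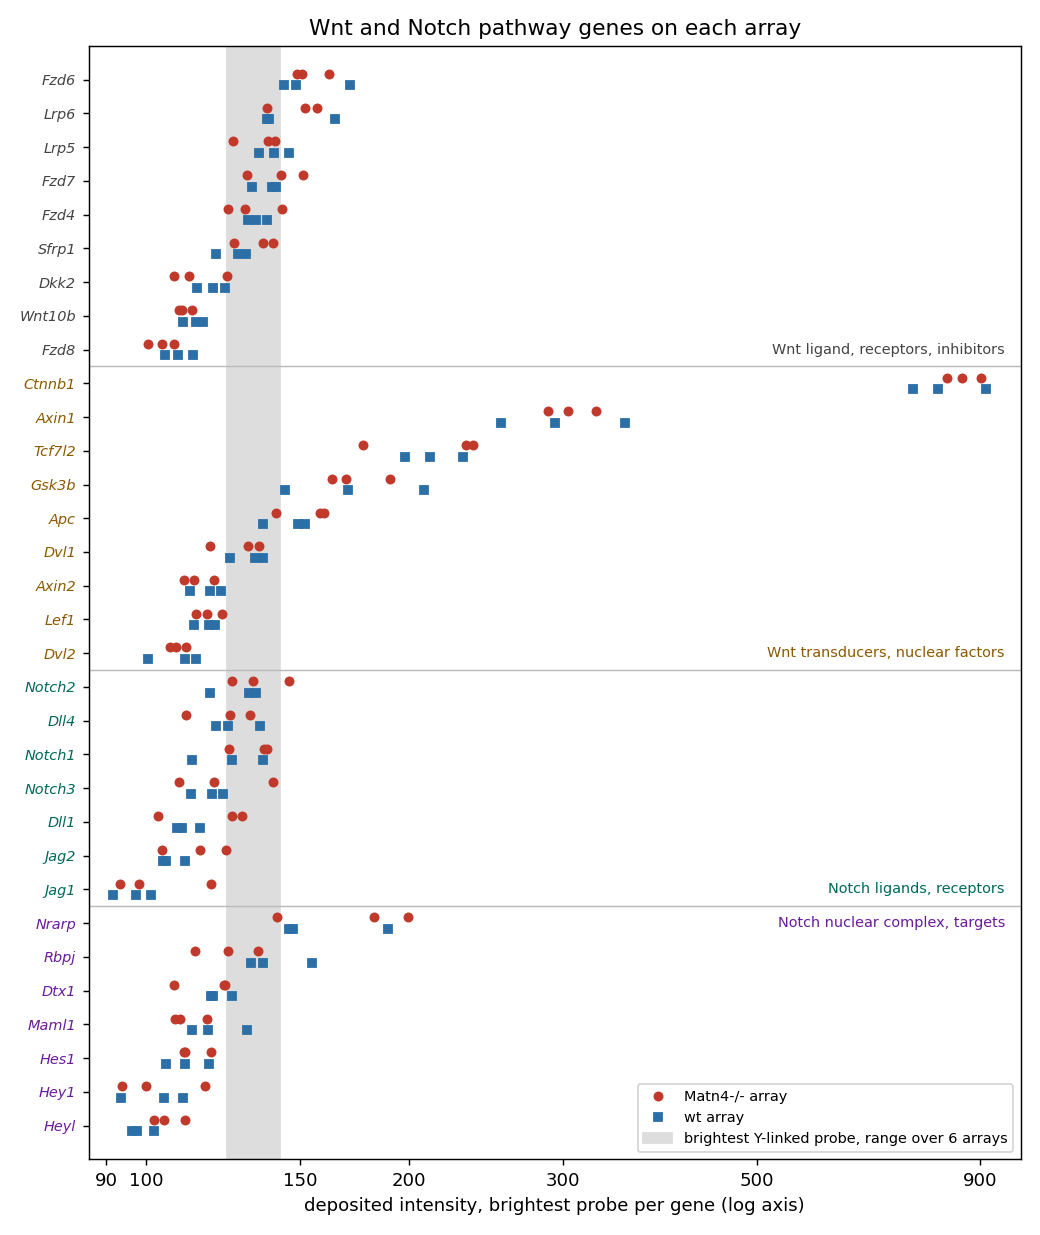
Deposited intensity (log axis) of the brightest probe of each of the 32 Wnt and Notch genes on each array, with Matn4-/- arrays as circles above the squares of wt arrays, grouped by role, and the range of the brightest Y-linked probe (123.8 to 142.2) in grey. Ctnnb1, Axin1, Tcf7l2, Gsk3b, Fzd6 and Nrarp lie above that probe on all 6 arrays, most other genes lie in or below the grey band, and the genotypes overlap in 31 of the 32 genes.

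Among Wnt receptors, the Frizzled genes Fzd4, Fzd6 and Fzd7 and both co-receptors passed the filter, while Fzd8 did not. Fzd6 was the 1 receptor above the Y-linked limit on all 6 arrays, at 162, 149 and 151 in Matn4-/- cells, against 148, 144 and 171 in wt cells. The highest and the lowest of the 6 values both belonged to wt cells, and the log2 fold change was -0.0028 (95% interval -0.21 to 0.20). Fzd7 read 143, 151 and 130.3 in Matn4-/- cells, against 139, 141 and 132 in wt cells, with a log2 fold change of 0.039 ± 0.082 (SE; adjusted p = 0.999). It exceeded the Y-linked limit on 3 of 3 Matn4-/- arrays and 2 of 3 wt arrays. Fzd4 exceeded it on 2 of 3 arrays of each genotype and had a log2 fold change of -0.022 (95% interval -0.21 to 0.16).

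Both co-receptors were close to the Y-linked limit. Lrp5 read 140.5, 138 and 126 in Matn4-/- cells, against 146, 135 and 139.9 in wt cells, with a log2 fold change of -0.057 ± 0.079 (SE; adjusted p = 0.999). Its lowest value was that of Matn4-/- replicate 3 and its highest that of wt replicate 1. Lrp6 ranged between 137.5 and 157 on Matn4-/- arrays and between 137.5 and 165 on wt arrays (log2 fold change 0.023, 95% interval -0.20 to 0.24).

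Secreted members of the pathway were at or near background. Sfrp1, which encodes a soluble protein that binds Wnt ligands, read 139.7, 136 and 126 in Matn4-/- cells, against 127, 120.2 and 130.1 in wt cells. It had the smallest p of the Wnt ligands, receptors and inhibitors, with a log2 fold change of 0.088 ± 0.078 (SE; adjusted p = 0.992), and exceeded the Y-linked limit on 2 of 3 Matn4-/- arrays and 1 of 3 wt arrays. The ligand gene Wnt10b, the receptor gene Fzd8 and Dkk2, whose product binds Lrp5 and Lrp6, were above it on no array. Their values ranged from 100.5 (Fzd8) to 123.7 (Dkk2) on Matn4-/- arrays and from 105 (Fzd8) to 123.2 (Dkk2) on wt arrays. A level not above background on this array is not evidence that a gene is silent.

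Within the beta-catenin cascade, Ctnnb1 and Axin1 stood furthest above background, and none of the cascade's tested genes passed. Ctnnb1, which encodes beta-catenin, read 825, 901 and 857 in Matn4-/- cells, against 913, 753 and 806 in wt cells. Both the highest and the lowest value were of wt cells, so the wt arrays enclosed all 3 Matn4-/- arrays. The means were 861 ± 38.3 in Matn4-/- cells and 824 ± 81.6 in wt cells (SD, n = 3 each). The log2 fold change was 0.067 ± 0.091 (SE; adjusted p = 0.999), with a 95% interval of -0.14 to 0.27. With the median of the Y-linked probes subtracted from each array, that interval was -0.30 to 0.45 around 0.07.

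The scaffold and kinase of the destruction complex varied more between replicates than between genotypes. Axin1 read 288, 304 and 327 in Matn4-/- cells, against 294, 352 and 255 in wt cells, again with all Matn4-/- arrays between the lowest and highest wt array, a log2 fold change of 0.040 ± 0.12 (SE; adjusted p = 0.999). Gsk3b, the kinase that marks beta-catenin, read 163, 190.1 and 169 in Matn4-/- cells, against 144, 208 and 170.1 in wt cells, and its 2 extremes were both wt arrays (log2 fold change 0.014, 95% interval -0.29 to 0.31). Apc, the second scaffold of the complex, read 158, 159.8 and 141 in Matn4-/- cells, against 152, 136 and 149 in wt cells. It exceeded the Y-linked limit on 3 of 3 Matn4-/- arrays and 2 of 3 wt arrays, with a log2 fold change of 0.069 ± 0.085 (SE; adjusted p = 0.999).

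Dishevelled proteins relay the signal from Frizzled receptors to the destruction complex. Dvl1 read 118, 135 and 131 in Matn4-/- cells, against 133, 136 and 125 in wt cells, near background in both genotypes, a log2 fold change of -0.039 ± 0.082 (SE; adjusted p = 0.999), and Dvl2 exceeded the Y-linked limit on no array. Of the nuclear factors, Tcf7l2 read 237, 232 and 177 in Matn4-/- cells, against 198, 230.2 and 211 in wt cells. Its lowest value was that of Matn4-/- replicate 3 and its highest that of Matn4-/- replicate 1, and the log2 fold change was 0.0066 ± 0.12 (SE; adjusted p = 0.999). Without Matn4-/- replicate 3 it was 0.14, and with other single arrays left out it lay on either side of 0.

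Axin2 and Lef1 are textbook targets of beta-catenin with TCF/LEF factors, Axin2 also being a feedback inhibitor of the pathway. Neither was above the Y-linked limit on any array. Axin2 read 119, 110.3 and 114 in Matn4-/- cells, against 112, 118 and 122 in wt cells, and Lef1 read 114, 117 and 122 in Matn4-/- cells, against 120.0, 113 and 118 in wt cells. All 4 probes of Lef1 exceeded it on no array. No fold is given for either gene, since neither genotype stood above the Y-linked limit.

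Promoter sequence is shown for these readout genes and for Nrarp, the listed Notch target read on every array, so that the targets can be seen beside their levels. RefSeq windows on GRCm38.p6 were present for 5 of the 8 target genes looked up, Nrarp, Dtx1, Axin2, Lef1 and Tcf7. The 250 bases before the start site were searched on both strands for CTTTGA, core letters of TCF/LEF sites, and TGGGAA, core letters of Rbpj sites, and capitals mark a match. Of 32851 such windows of all genes, 13.8% hold CTTTGA and 21.6% hold TGGGAA. The Axin2 window (chr11:108920099-108920348, plus strand) and the Nrarp window (chr2:25180508-25180757, plus strand) hold neither. Of the 4 Lef1 windows, those that start at chr3:131110047, chr3:131110073 and chr3:131112541 hold neither. The 1 window with a match was picked for display because of that match, and it starts downstream of the others. It (chr3:131156044-131156293, plus strand) holds CTTTGA 2 times, both on the reverse strand and so read here as TCAAAG. A match is a description of letters, and its absence in a short window says nothing about the factor.
Axin2: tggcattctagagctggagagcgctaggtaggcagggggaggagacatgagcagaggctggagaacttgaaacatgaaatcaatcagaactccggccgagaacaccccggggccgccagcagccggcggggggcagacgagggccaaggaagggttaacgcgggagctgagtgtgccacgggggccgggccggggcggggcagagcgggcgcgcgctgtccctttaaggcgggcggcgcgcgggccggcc
Lef1: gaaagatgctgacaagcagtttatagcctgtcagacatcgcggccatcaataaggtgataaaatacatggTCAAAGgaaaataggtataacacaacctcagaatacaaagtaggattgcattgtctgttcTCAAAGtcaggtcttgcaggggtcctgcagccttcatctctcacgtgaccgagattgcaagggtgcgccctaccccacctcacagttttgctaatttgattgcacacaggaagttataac
Nrarp: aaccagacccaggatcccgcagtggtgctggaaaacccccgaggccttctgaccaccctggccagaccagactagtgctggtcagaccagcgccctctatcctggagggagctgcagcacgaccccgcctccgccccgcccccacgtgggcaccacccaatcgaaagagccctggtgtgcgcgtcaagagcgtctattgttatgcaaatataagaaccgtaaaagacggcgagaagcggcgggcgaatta

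Notch receptors were close to background in both genotypes. Notch1 read 136, 137 and 125 in Matn4-/- cells, against 136, 113 and 125 in wt cells, with a log2 fold change of 0.093 ± 0.092 (SE; adjusted p = 0.997). It exceeded the Y-linked limit on 2 of 3 Matn4-/- arrays and 1 of 3 wt arrays, and its lowest value was that of wt replicate 2. Notch2 read 133, 125 and 146 in Matn4-/- cells, against 133, 118 and 131 in wt cells with a log2 fold change of 0.075 ± 0.088 (SE; adjusted p = 0.999), and exceeded it on 1 of 3 Matn4-/- arrays and 2 of 3 wt arrays. Its highest value was that of Matn4-/- replicate 3. For Notch3 a single array, Matn4-/- replicate 3 at 139.6, stood above the Y-linked limit, and the other 5 read 109.0 to 122.4, so no fold is given.

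Notch ligands, which are presented by neighbouring cells and are known from stroma and vessels of the marrow, were at background in the sorted cells. Dll4 read 131, 125 and 111 in Matn4-/- cells, against 124, 135 and 120.1 in wt cells, above the Y-linked limit on no array. Jag1 and Jag2 read 91.6 to 123.4 over all arrays and both were highest on Matn4-/- replicate 3. Dll1 exceeded the Y-linked limit on that array alone, at 128.8. These samples are bulk RNA, in which fewer cells of a type and less RNA per cell cannot be told apart.

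The nuclear partners of Notch held the largest difference of the list. Rbpj, the DNA-binding factor to which cut Notch binds, read 114, 124 and 134 in Matn4-/- cells, against 132, 136 and 155 in wt cells. The means were 124 ± 10.2 in Matn4-/- cells and 141 ± 12.3 in wt cells (SD, n = 3 each), and the genotypes overlapped between Matn4-/- replicate 3 and wt replicate 1. Its log2 fold change was -0.18 ± 0.095 (SE; adjusted p = 0.928), with a 95% interval of -0.40 to 0.035, so it did not pass, and 12.6% of all tested genes had a larger absolute value. It exceeded the Y-linked limit on 1 of 3 Matn4-/- arrays and 2 of 3 wt arrays.

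Near background the size of that difference depended on the scale. With the Y-linked median subtracted and values under 16 set to 16, which applied to Matn4-/- replicate 1, the log2 fold change of Rbpj was -0.82 (95% interval -1.42 to -0.21, limma unadjusted p = 0.0162, adjusted p = 0.813). With a floor of 1, added after the data were seen and reached by none of its values, it was -1.51 (95% interval -3.27 to 0.24, unadjusted p = 0.0796, adjusted p = 0.956). With background left in, it was -0.24 without Matn4-/- replicate 3 (unadjusted p = 0.0414, adjusted p = 0.708), -0.12 without Matn4-/- replicate 1 (unadjusted p = 0.256) and -0.11 without wt replicate 3 (unadjusted p = 0.303). The mean of both kept Rbpj probes gave -0.055. The other 2 Rbpj probes did not follow the brightest one, and both exceeded the Y-linked limit on no array. The other kept probe read 131, 120.4 and 120.1 in Matn4-/- cells, against 118, 111 and 125 in wt cells. The dimmest read 115.7, 110.7 and 109.8 in Matn4-/- cells, against 108.8, 109.1 and 107.5 in wt cells, so on this probe the Matn4-/- arrays were higher without overlap. RefSeq lists pseudogenes of Rbpj, and whether these probes also read them was not tested. Maml1, a Mastermind coactivator, did not pass the filter and exceeded the Y-linked limit on wt replicate 1 alone, at 130.4.

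Nrarp, an ankyrin repeat protein that is induced by Notch and dampens its signal, was the 1 Notch gene of the 33 above the Y-linked limit on all 6 arrays. It read 182, 199 and 141 in Matn4-/- cells, against 146, 189 and 147 in wt cells. Matn4-/- replicates 1 and 2 and wt replicate 2 were high, while Matn4-/- replicate 3 and wt replicates 1 and 3 were low, so each genotype held both levels. The means were 174 ± 29.8 in Matn4-/- cells and 161 ± 24.6 in wt cells (SD, n = 3 each). The log2 fold change was 0.11 ± 0.15 (SE; adjusted p = 0.999), with a 95% interval of -0.22 to 0.45, the widest of the 19. Leaving out any 1 array moved it by over 1.5 times, between 0.0088 without Matn4-/- replicate 2 and 0.26 without Matn4-/- replicate 3 (adjusted p = 0.752).

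The other 4 Notch targets of the list were at or near background. Dtx1, a deltex ubiquitin ligase gene induced by Notch in lymphoid cells, read 123, 123 and 108 in Matn4-/- cells, against 125, 119 and 119 in wt cells. Hes1 read 119, 110.5 and 111 in Matn4-/- cells, against 105, 111 and 118 in wt cells, and Hey1 read 93.9 to 116.7 in Matn4-/- cells and 93.6 to 110.2 in wt cells. Heyl read 105, 102 and 111 in Matn4-/- cells, against 102, 96.4 and 97.7 in wt cells. All 4 exceeded the Y-linked limit on no array, so no fold is given. In Heyl all 3 Matn4-/- values lay above all 3 wt values, the 1 such case among the 32 genes, in a gene below the filter. Among tested genes, 4.29% had all Matn4-/- values above all wt values.

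**Figure D2:**
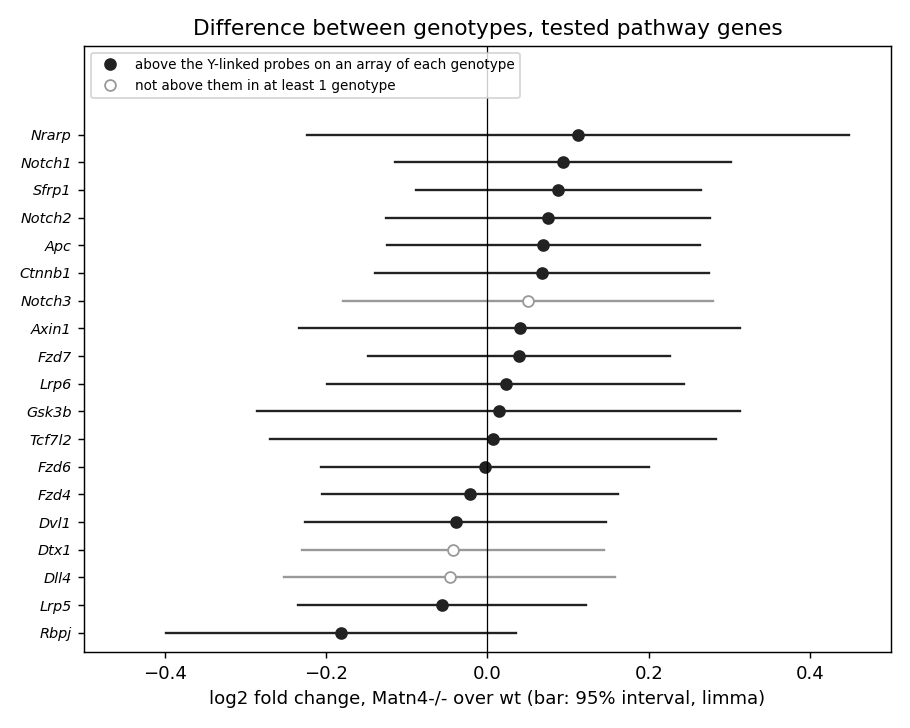
Log2 fold change of Matn4-/- over wt with its 95% interval from limma for the 19 tested Wnt and Notch genes, ordered by fold, with open symbols for the genes not above the Y-linked limit on any array of at least 1 genotype (Notch3, Dll4 and Dtx1). All 19 intervals include 0, from Rbpj at -0.18 to Nrarp at 0.11.

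By role, the counts of genes with a fold were small and mixed. Wnt ligands, receptors and inhibitors split into 3 higher and 3 lower of 6. Of 6 Wnt transducers and nuclear factors, 5 were higher and 1 was lower, with log2 fold changes from -0.039 (Dvl1) to 0.069 (Apc). Among Notch genes, the receptors Notch1 and Notch2 and the target Nrarp were higher and Rbpj was lower. None of these genes passed.

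Replicates of 1 genotype differed from each other about as much in these genes as in others. The SD between replicates on the log2 scale, pooled over both genotypes, had a median of 0.107 in the 19 genes, against 0.111 in all tested genes. It ranged from 0.068 to 0.24. Matn4-/- replicate 3, the array with the lowest limma quality weight (0.489), was the lowest of the 6 arrays in 7 of the 19 genes (33.8% of all tested genes) and the highest in 2 (12%). Among the 13 genes below the filter it was the highest array in 6. The share over all genes below the filter was not computed, so this count has nothing to be set against. The part of this array in any single difference was not tested beyond the values given without it.

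**Figure D3:**
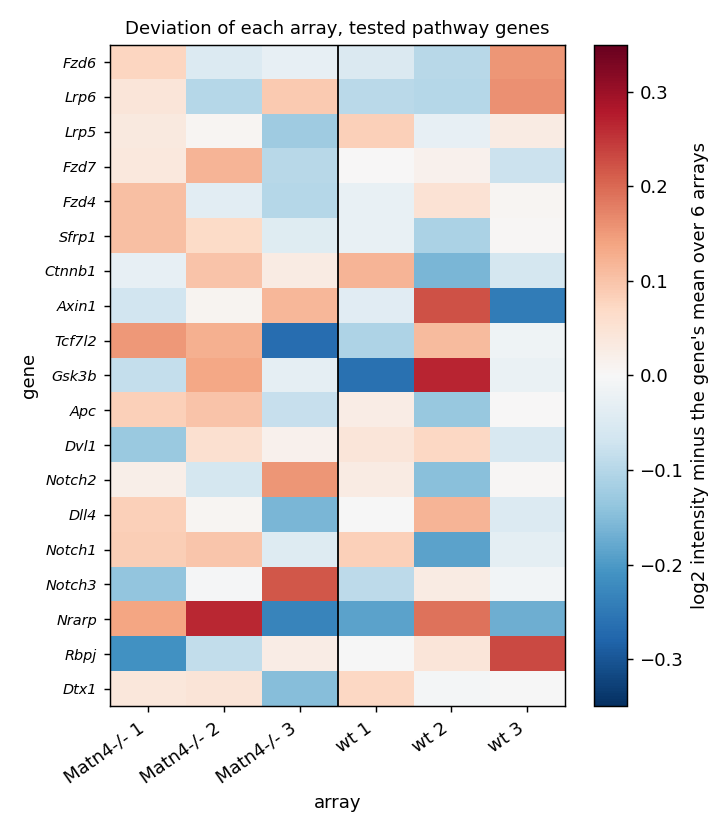
Deviation of each array from the gene's mean over 6 arrays (log2 intensity, colour scale) for the 19 tested genes, with Matn4-/- arrays left of wt arrays. No gene is coloured 1 way in all Matn4-/- arrays and the other way in all wt arrays, and Nrarp, Gsk3b, Tcf7l2 and Axin1 vary within each genotype.

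Several genes were read by more than 1 probe, which gives the gene a second reading. Whether the probes of a gene read the same transcripts was not tested. The 32 genes had 58 probes, and in a fit of all 46237 probes none of the 58 was at an unadjusted p under 0.05 (4.52% of all probes were). Of the 19 tested genes, 13 had other probes, 22 in all, of which 11 passed the filter and 5 were also above the Y-linked limit on at least 1 array of each genotype. The 5 belong to Ctnnb1, Fzd6, Lrp5 and Tcf7l2, and 1 of them, that of Fzd6, had the sign of the brightest probe. Both other Ctnnb1 probes exceeded the Y-linked limit on all 6 arrays. They read 609, 564 and 598 and 676, 669 and 578 in Matn4-/- cells, against 648, 625 and 603 and 656, 648 and 637 in wt cells. Their log2 fold changes were -0.082 ± 0.060 and -0.017 ± 0.072 (SE), on the other side of 0 from the brightest probe. The second Tcf7l2 probe read 136, 156 and 124 in Matn4-/- cells, against 153, 144 and 143 in wt cells, and its log2 fold change was -0.089 ± 0.085 (SE).

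**Figure D4:**
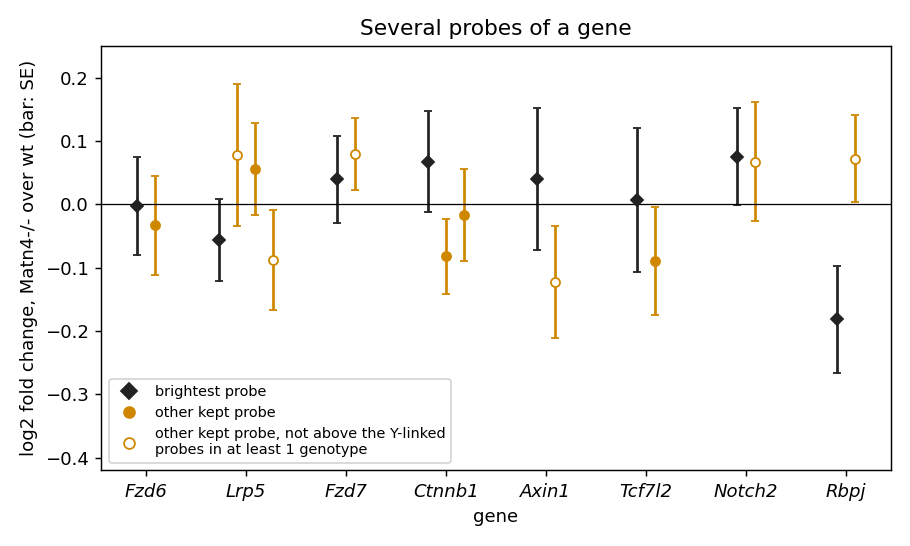
Log2 fold change of Matn4-/- over wt with its SE, from a fit of all 46237 probes, for each kept probe of the 8 genes with more than 1 kept probe, with the brightest probe as a diamond, others as circles, and open circles for probes not above the Y-linked limit in at least 1 genotype. In 3 of the 4 genes with a filled circle (Ctnnb1, Lrp5 and Tcf7l2) it lies on the opposite side of 0 from the brightest probe.

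Beyond the 33, no other listed gene of either pathway passed the test. A list of 71 other Wnt genes had a probe for each, of which 40 were tested, with a median log2 fold change of 0.0045. A fold is given for 29 of them, 11 higher and 18 lower. None passed (smallest adjusted p = 0.884), and 1 was at an unadjusted p under 0.05 (5.59% of all tested genes were). That was Ryk, an atypical Wnt receptor, which read 129.7, 149.7 and 142 in Matn4-/- cells, against 119, 126 and 124 in wt cells. All 3 Matn4-/- arrays lay above all 3 wt arrays (4.29% of all tested genes), and no wt array stood above the Y-linked limit. The difference is therefore given as a bound on the means of these arrays, 1.05-fold higher in Matn4-/- cells. That bound takes no sampling error into account, and the adjusted p of 0.884 is limma's for the intensities with background in them, not for the bound. The second Ryk probe read 130.1, 146 and 126 in Matn4-/- cells, against 122, 126 and 113 in wt cells. There the genotypes overlapped, and the bound was 1.003-fold.

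Tle3, a Groucho corepressor, read 122, 122 and 151 in Matn4-/- cells, against 115, 114 and 114 in wt cells, above the Y-linked limit on Matn4-/- replicate 3 alone, and its adjusted p was 0.928. Each of its 3 other probes was above the limit on at most 1 array. In Csnk1d, Tle2 and Amer1 all Matn4-/- values also lay above all wt values (4.29% of all tested genes). Their log2 fold changes were 0.14, 0.14 and 0.093 (limma adjusted p = 0.968, 0.928 and 0.99). Other probes of Csnk1d and Tle2 are not given here. No tested gene of this list had all Matn4-/- values below all wt values. The smallest p among lower Wnt genes was that of Ctnnbip1, an inhibitor of beta-catenin binding to TCF factors, which read 113, 119 and 152 in Matn4-/- cells, against 139, 169 and 129 in wt cells, a log2 fold change of -0.19 ± 0.14 (SE; adjusted p = 0.982). Chd8, a chromatin remodeller that binds beta-catenin, followed at -0.14 (adjusted p = 0.99).

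Among 45 other Notch genes, 42 had a probe and 35 were tested, with a median log2 fold change of -0.018. A fold is given for 30 of them, 14 higher and 16 lower. None passed (smallest adjusted p = 0.84) and 1, Lfng, was at an unadjusted p under 0.05 (5.59% of all tested genes were). Fringe enzymes add sugars to Notch and tune its choice of ligand. Lfng read 121, 149 and 121 in Matn4-/- cells, against 143, 168 and 164 in wt cells, a log2 fold change of -0.28 ± 0.11 (SE; adjusted p = 0.84), and it exceeded the Y-linked limit on 1 of 3 Matn4-/- arrays and 3 of 3 wt arrays. Matn4-/- replicate 2 overlapped the wt arrays. Mfng read 194, 202 and 222 in Matn4-/- cells, against 290.0, 208 and 233 in wt cells, above that limit on all 6 arrays, a log2 fold change of -0.23 ± 0.12 (SE; adjusted p = 0.928), but its second probe stood at 0.083. The third fringe gene, Rfng, named after its values were seen, stood at -0.089 in log2 (adjusted p = 0.99).

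The smallest p-values among higher Notch genes were those of Maml3, a Mastermind coactivator, at 0.11 (adjusted p = 0.982), and of the acetyltransferase gene Crebbp, likewise at 0.11 (adjusted p = 0.99). A second Crebbp probe stood at 0.10. The third read 209.8, 128 and 134 in Matn4-/- cells, against 119.7, 125 and 125.0 in wt cells, with no wt array above the limit. Its bound on the means of these arrays was 1.15-fold, with no sampling error taken into account. In it, 1 Matn4-/- array lay far above the other 5.

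**Figure D5:**
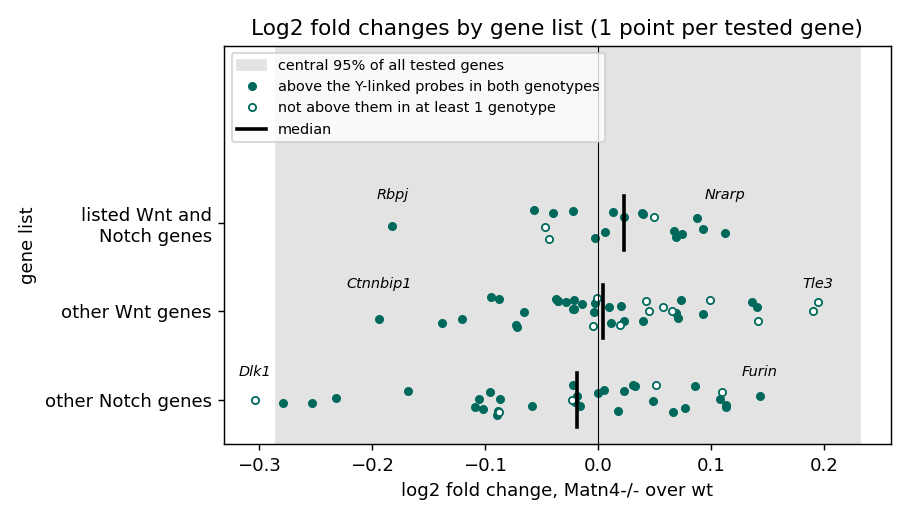
Log2 fold change of Matn4-/- over wt for each tested gene (1 point per gene, spread vertically for legibility, open where the gene was not above the Y-linked limit in at least 1 genotype) of the listed Wnt and Notch genes (19), the other Wnt genes (40) and the other Notch genes (35), with the median of each list as a bar and the central 95% of all tested genes, -0.29 to 0.23, in grey. The medians lie at 0.023, 0.0045 and -0.018. A single point, the open one of Dlk1 among the other Notch genes, lies outside the grey band, with its 3 wt arrays at 196, 115 and 108.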

How the data were processed

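RNA of sorted stem cells (2.5 ng) was amplified and biotin-labelled, as the labels' protocols describe. Linear intensities, 1 for each probe on each array, were taken as deposited. How the authors normalized them is not given here. Column medians lay between 118.0 and 120.4. A table of non-normalized signals was not used, since none of its 12 value columns matches a label by name. Precision is limited by the number of arrays.

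Of 46237 probes, 35784 had 1 gene symbol in the platform table, 0 had several and 10453 had none. A RefSeq gene table (GRCm38.p6) gave current symbols by Entrez identifier for 28620 probes and by accession without version for 2637, and 4527 kept the platform's symbol. The brighter 50% of probes by mean log2 intensity were kept (23118), and the brightest per symbol was fitted on the log2 scale with limma 3.58.1 run under R 4.3.3 (lmFit, then eBayes) with a genotype term alone. The Benjamini-Hochberg adjustment covered 12764 genes. Fold changes are Matn4-/- over wt. A gene that exceeds its array's brightest Y-linked signal nowhere gets no fold. With 1 genotype nowhere above, the fold is a lower bound, the bright genotype's mean over the dim genotype's mean of, per array, the higher of that Y-linked signal and the gene's own. No fold is given where this is under 1. The bound describes the means of these arrays and takes no sampling error into account. Tables were handled in Python 3.11.15 (pandas 2.3.3), and plots in matplotlib 3.10.9. The genes and lists were chosen with earlier results of these data known. Values per array are given for genes whose groups do not overlap, for the 3 smallest p-values of each of 4 role lists and for textbook targets, and beyond these for Axin1, Gsk3b, Tcf7l2 and Fzd6, which were read on all arrays and were added after their values had been seen. From the lists of other pathway genes, the 2 smallest p-values in each direction are named. Csnk1d, Tle2 and Amer1 were named besides, after their values had been seen, because their groups do not overlap. The alternatives were other filters, scalings, subtraction of each array's Y-linked median (with values under 16 set to 16), probe choice, weights, a replicate block and each array left out.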

Additional observations from a re-analysis of the deposited data

How the results depend on the processing

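No Wnt or Notch gene of the list passed the threshold in any of the 16 alternatives (smallest adjusted p = 0.664, Rbpj with array quality weights), and 1 gene, Rbpj, reached an unadjusted p under 0.05 in 2 of them (background subtracted with a floor of 16, and without Matn4-/- replicate 3). Of the 16 genes with a fold, 7 kept their sign throughout, and over all 249 values 24 had the other sign. With the mean of all kept probes, Ctnnb1 stood at -0.011, Axin1 at -0.041 and Tcf7l2 at -0.041. Tcf7l2 stood at -0.0071 with median scaling and -0.050 with background subtracted (with a floor of 16 or of 1), Fzd6 at 0.020 with quantile normalization and Lrp6 at -0.022 with array quality weights. With each array left out in turn, log2 fold changes ranged from -0.072 to 0.16 for Axin1, -0.067 to 0.14 for Tcf7l2, -0.080 to 0.023 for Fzd4, -0.052 to 0.073 for Fzd6, -0.011 to 0.097 for Fzd7, -0.021 to 0.11 for Lrp6, -0.11 to 0.15 for Gsk3b and -0.077 to 0.016 for Dvl1. Those that kept their sign ranged from 0.0046 to 0.14 for Ctnnb1, 0.022 to 0.16 for Notch1, 0.016 to 0.12 for Notch2, 0.020 to 0.13 for Apc, -0.088 to -0.0084 for Lrp5, 0.055 to 0.13 for Sfrp1, 0.0088 to 0.26 for Nrarp and -0.24 to -0.11 for Rbpj. Why signs turned was not tested. Each of these intervals included 0 with all arrays. Background subtraction with a floor of 16 moved Rbpj to -0.82 and the other 15 genes to between -0.38 and 0.29, and with a floor of 1, added after the data were seen, Rbpj to -1.51. Over all genes, 7 passed with all arrays, 1 with background subtracted, 0 with the floor of 1 (508 at an unadjusted p under 0.05 in limma) and 3 to 7 with an array left out, where the lowest count was without Matn4-/- replicate 1 (3) and the next without wt replicate 1 (4). The number of listed genes above the Y-linked limit on all 6 arrays was 6 and became 13 with the second brightest Y-linked probe as the limit. With the replicate number as a block, 9 genes passed, none of them in the list, and the median of the 19 genes was 0.023 as before. Deviations of same-numbered arrays correlated at 0.0164, 0.0587 and 0.0608, and 5 of 6 arrays correlated best with their own number. The labels do not say whether same-numbered arrays share a recipient. Whether the numbers mark pairs could therefore not be told, and the main fit did not pair them. Low signal limits most of the 32 genes, since 13 were above the Y-linked limit on no array and a further 13 on 1 to 5 arrays.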

Other observations

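Of the 32 measured genes, 4 lie on chromosome 2 with Matn4, namely Notch1, Nrarp, Dll4 and Jag1. Notch1 had a log2 fold change of 0.093 and Nrarp of 0.11, each in a gene whose genotypes overlapped. Dll4 and Jag1 were above the Y-linked limit on no array. Of the other Notch genes, Itch and Pofut1 were tested and also lie on chromosome 2. Their log2 fold changes were -0.25 and -0.096, each with overlapping genotypes. Distances of these genes to Matn4 were not examined. In the list of other Notch genes, Dlk1, a non-canonical ligand gene known for imprinting, read 107, 104 and 116 in Matn4-/- cells, against 196, 115 and 108 in wt cells (adjusted p = 0.97). A single wt array was above the Y-linked limit and the other 5 arrays were not.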
